A study of Mus musculus with 15 samples.

Results

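The nicotinic acetylcholine receptor genes Chrnb4, Chrna3 and Chrna5 lie side by side on mouse chromosome 9. They were followed here in RNA-Seq libraries of posterior eyecups from mice carrying the FUN025 mutation of Tmem135. Chrnb4 was taken because it was raised in FUN025/FUN025 eyecups in these data, and Chrna3 and Chrna5 because they are its neighbours in the cluster. The differences of Chrnb4 between genotypes are therefore given as a description and carry no test. The 3 genes were all found among the 55421 genes listed for each library. The libraries came from 4 WT, 6 FUN025/+ (heterozygous) and 5 FUN025/FUN025 (homozygous) samples, all aged 2.5 months and on the C57BL/6J background. The eyecup is the retinal pigmented epithelium, choroid and sclera left after the neural retina is removed. Mice of both sexes were used, and eyecups were described as pooled from individual mice, without the number of eyes in each library. The p-values below measure the spread between these libraries.

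Nicotinic receptors are cation channels of 5 subunits that open when acetylcholine binds. Chrna3 encodes the alpha3 subunit, which forms the acetylcholine binding site together with a beta subunit such as the beta4 subunit encoded by Chrnb4. Chrna5 encodes the alpha5 subunit, an accessory subunit that joins such receptors without forming the classical binding site. The alpha3 and beta4 subunits are best known from autonomic ganglia, the adrenal medulla and the habenula of the brain, where the clustered genes are often expressed together. In the eye, alpha3 is also known from the neural retina.

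In GRCm38, Chrnb4 (ENSMUSG00000035200) occupies chr9:55028154-55048779 on the minus strand. Chrna3 (ENSMUSG00000032303) occupies chr9:55010111-55026562, also on the minus strand, and starts after the end of Chrnb4 with 1591 bases between the genes. Chrna5 (ENSMUSG00000035594) occupies chr9:54980880-55007779 on the plus strand, so that it runs towards Chrna3, with 2331 bases between their ends in GENCODE M21. The whole cluster spans 67900 bases. In RefSeq, the Chrna5 model extends further and overlaps the end of Chrna3 by 1304 bases, and the annotation release used for counting is not given in the sources used here. An antisense gene, Gm47877, lies within Chrnb4 without sharing an exon base, and it held 1 to 11 counts per library. In CPM, Gm47877 was at 0.111 to 0.278 in WT, 0.0868 to 0.573 in FUN025/+ and 0.328 to 0.845 in FUN025/FUN025 libraries, so that, at few counts, its FUN025/FUN025 libraries lay above the WT libraries, as for 7.27% of the genes tested, and overlapped FUN025/+. The strand setting of the counting is not stated, so reads of Chrnb4 introns and of Gm47877 cannot be told apart. Of the 31-base stretches in the members' transcripts, 2.47% of those of Chrnb4, 0.883% of those of Chrna3 and 0.381% of those of Chrna5 also occurred in another gene. Chrnb4 and Chrna3 shared 6 of these stretches with each other, 3 of them with no other gene.

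The 250 bases before the RefSeq starts of Chrna3 and Chrna5 are printed because Chrna3 rose with the homozygous genotype and Chrna5, on the opposite strand, stayed at or near the counting floor. The sequences are from RefSeq on GRCm38.p6, and for each member they were matched by symbol. The capitals mark matches, on either strand, to GGGCGG or CACCC (boxes bound by Sp1 and Sp3), ACAAAG (a Sox site) and TCACNCCAC (a sterol regulatory element).
Chrna3, minus strand, chr9:55026563-55026812: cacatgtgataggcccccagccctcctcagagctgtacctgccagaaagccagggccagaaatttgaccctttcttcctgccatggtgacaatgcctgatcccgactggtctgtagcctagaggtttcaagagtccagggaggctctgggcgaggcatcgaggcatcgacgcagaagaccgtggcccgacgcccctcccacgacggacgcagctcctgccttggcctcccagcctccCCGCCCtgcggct
Chrna5, plus strand, chr9:54980630-54980879: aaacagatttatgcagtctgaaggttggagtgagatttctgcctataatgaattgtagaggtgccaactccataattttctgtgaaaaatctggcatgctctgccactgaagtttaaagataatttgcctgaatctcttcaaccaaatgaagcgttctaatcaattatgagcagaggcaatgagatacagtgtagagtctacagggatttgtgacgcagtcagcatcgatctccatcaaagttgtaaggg
The window before Chrna3 held 1 GC box, whose first base lay 13 bases before the start, and none of the other motifs. The window before this Chrna5 start held none of the motifs. RefSeq lists a second start of Chrna5, whose window held 4 GC boxes and 2 CACCC boxes. The window before Chrnb4 held 3 CACCC boxes, which began 227, 140 and 94 bases before the start. It is not printed because 235 of its 250 bases belong to the first exon of Chrnb4 in GENCODE. No member's window held the Sox site or the sterol regulatory element. Among the 32817 such windows in the table, 32.72% held the GC box, 52.01% the CACCC box, 16.47% the Sox site and 1.05% the sterol regulatory element. These matches describe letters and are not evidence of binding.

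Library depth differed with genotype. Total counts were between 18094977 and 20029919 in WT libraries, between 10903183 and 13456349 in FUN025/+ libraries and between 11053535 and 15038383 in FUN025/FUN025 libraries. Values are therefore given as CPM, which are counts scaled to the size of the library and corrected by TMM, and 3 counts correspond to 0.15 to 0.28 CPM before that correction; this floor covers counting error only. WT replicate 2 stood apart by its neural retina RNA: the 10 rod and cone genes of the marker list summed to 2107 CPM there and to between 93.5 and 659.8 CPM in the other libraries. Tests used edgeR's quasi-likelihood test with all 15 libraries in one fit and Benjamini-Hochberg adjustment over 18979 genes.

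Chrnb4 held far more reads than its neighbours. In the 4 WT libraries Chrnb4 was at 28.99, 28.6, 26.0 and 29.9 CPM, with a mean of 28.4 ± 1.66 (SD). Chrnb4 in the 6 FUN025/+ libraries ranged from 26.7 to 35.1 CPM, with a mean of 30.6 ± 3.06 (SD). In the 5 FUN025/FUN025 libraries Chrnb4 was at 67.9, 75.5, 94.4, 68.8 and 70.0 CPM, with a mean of 75.3 ± 11.0 (SD). Every FUN025/FUN025 library was thus above every other library, whereas the WT and FUN025/+ libraries overlapped. The level of Chrnb4 in FUN025/FUN025 eyecups was 2.65-fold that in WT eyecups (log2 fold change 1.41, SE 0.095) and 2.46-fold that in FUN025/+ eyecups (1.30, SE 0.085). Between FUN025/+ and WT the log2 fold change of Chrnb4 was 0.11 (SE 0.092), and it was 0.067 without FUN025/+ replicate 4 and 0.029 with the WT libraries thinned to the depth of the mutant libraries. Chrnb4 was chosen by this pattern. The raw counts behind these values were 522 to 539 in WT, 325 to 438 in FUN025/+ and 773 to 1177 in FUN025/FUN025 libraries.

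Chrna3 rose together with Chrnb4 in FUN025/FUN025 eyecups. Chrna3 counts were 21, 42, 19 and 22 in the WT libraries, or 1.17, 2.26, 0.948 and 1.22 CPM. In FUN025/+ libraries Chrna3 had 27, 20, 21, 25, 11 and 22 counts, between 1.03 and 2.17 CPM. In FUN025/FUN025 libraries, which were less deep than WT, Chrna3 reached 78, 73, 95, 61 and 45 counts, or 5.11, 5.61, 7.62, 5.005 and 4.08 CPM. The lowest FUN025/FUN025 library was above the highest of the other 10, and that highest value came from WT replicate 2. Chrna3 was 3.91-fold higher in FUN025/FUN025 than in WT eyecups (log2 fold change 1.97, SE 0.25, adjusted p = 4.2e-05, edgeR). It was 3.21-fold higher than in FUN025/+ eyecups (log2 fold change 1.68, SE 0.22, adjusted p = 0.00037, edgeR). Between FUN025/+ and WT, the log2 fold change of Chrna3 was 0.29 (SE 0.26), which did not pass the test (adjusted p = 0.49, edgeR). Over all genes tested, 7.03% were called higher in FUN025/FUN025 than in WT and 0.327% higher than in FUN025/+. CPM values that did not overlap, in the direction of higher FUN025/FUN025 levels, were found for 7.27% of genes against WT and for 0.632% of genes against FUN025/+.

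WT replicate 2, the library with retina RNA, held the highest WT level of Chrna3. Without that library the log2 fold change of Chrna3 between FUN025/FUN025 and WT was 2.31 (SE 0.24, adjusted p = 7.1e-06, edgeR), and between FUN025/+ and WT it was 0.62 (SE 0.25, adjusted p = 0.12, edgeR), more than 1.5 times the value with all libraries. For Chrnb4, which was at 28.6 CPM in that library, the log2 fold change between FUN025/FUN025 and WT without it was 1.42. In these bulk samples, more cells of a type that expresses the genes and more RNA per cell cannot be told apart.

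Chrna5 was scarcely detected. Its counts were 8, 2, 2 and 0 in WT, 4, 6, 1, 2, 1 and 1 in FUN025/+, and 2, 0, 2, 2 and 5 in FUN025/FUN025 libraries. Most of these are at or under 3 counts, Chrna5 did not pass the filter on low counts, and no fold change is given. The mean level of Chrna5 was 0.163 CPM in WT, 0.201 CPM in FUN025/+ and 0.182 CPM in FUN025/FUN025 libraries. The difference between FUN025/FUN025 and WT was 0.0188 CPM (exact permutation test, two-sided, p = 0.75, adjusted over 3 comparisons 0.84). A change of Chrna5 was not detectable at this depth. Of the 2 clustered neighbours of Chrnb4, Chrna3 therefore rose with it, and Chrna5 was too low for the question to be answered.

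**Figure D1:**
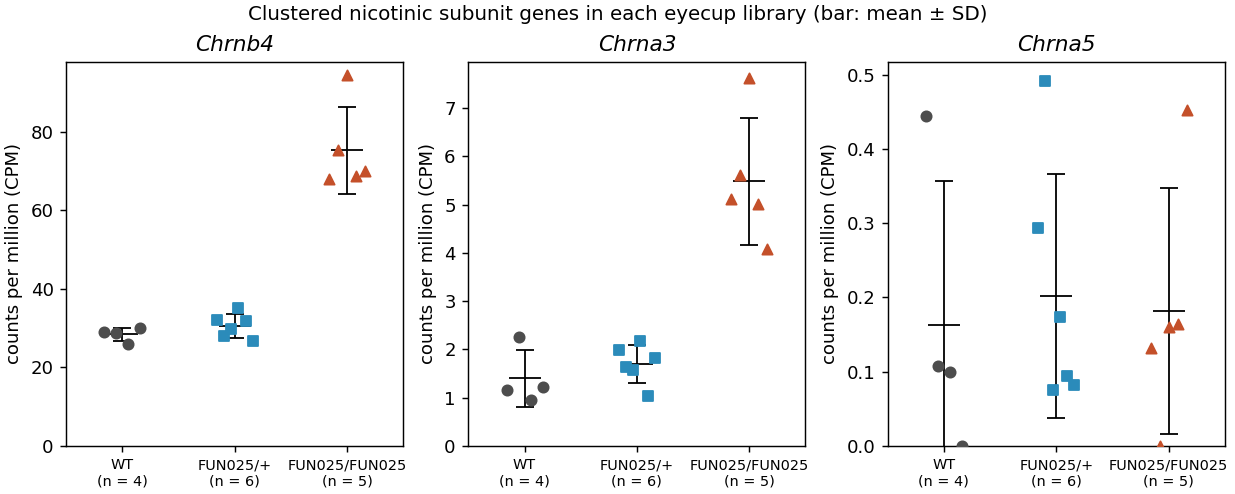
CPM values (TMM scaling) of Chrnb4, Chrna3 and Chrna5 in each library by genotype, with a separate vertical scale for each gene; black bars are the mean and SD. The 5 FUN025/FUN025 libraries lie above all other libraries for Chrnb4 (67.9 CPM or more) and Chrna3 (4.08 CPM or more), while Chrna5 stays under 0.5 CPM in every library.

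The proportion of the 2 transcripts was examined next. For every 100 counts of Chrnb4, WT libraries held 3.64 to 7.88 counts of Chrna3 (median 4.05), FUN025/+ libraries 3.25 to 6.77 (median 6.01) and FUN025/FUN025 libraries 5.82 to 8.07 (median 7.43). The highest WT value was that of WT replicate 2, and without it WT libraries held 3.64 to 4.08, below all FUN025/FUN025 libraries and within the range of FUN025/+. With it, all 3 genotypes overlapped. Per kb of exon, the mean level of Chrnb4 was 28.7 times that of Chrna3 in WT, 25.5 times in FUN025/+ and 19.4 times in FUN025/FUN025 eyecups. The beta4 transcript was thus the more abundant of the pair in every genotype.

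Whether the members also moved together within a genotype was examined in the 6 FUN025/+ libraries, on log2 CPM with a prior count of 2. The coefficient for Chrnb4 and Chrna3 was r = 0.16 (exact permutation p = 0.78, adjusted over 3 pairs 1.0) and rho = 0.43 (exact permutation p = 0.42, adjusted 0.66). Without the 2 libraries farthest from the median of Chrnb4, r was -0.16. For Chrnb4 and Chrna5, r was -0.020 (exact permutation p = 1.0) and rho 0.26 (exact permutation p = 0.66), with r = -0.48 without 2 libraries. Between Chrna3 and Chrna5, r was 0.31 (exact permutation p = 0.56) and rho 0.37 (exact permutation p = 0.50), with r = 0.15 without 2 libraries. Adjusted values for these 2 pairs were 1.0 for r and 0.66 for rho. With 11 to 27 counts of Chrna3 and 1 to 6 of Chrna5 in these libraries, counting error limits all 3 coefficients. Among the FUN025/FUN025 libraries, replicate 3 had the highest level of both Chrnb4 (94.4 CPM) and Chrna3 (7.62 CPM).

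**Figure D2:**
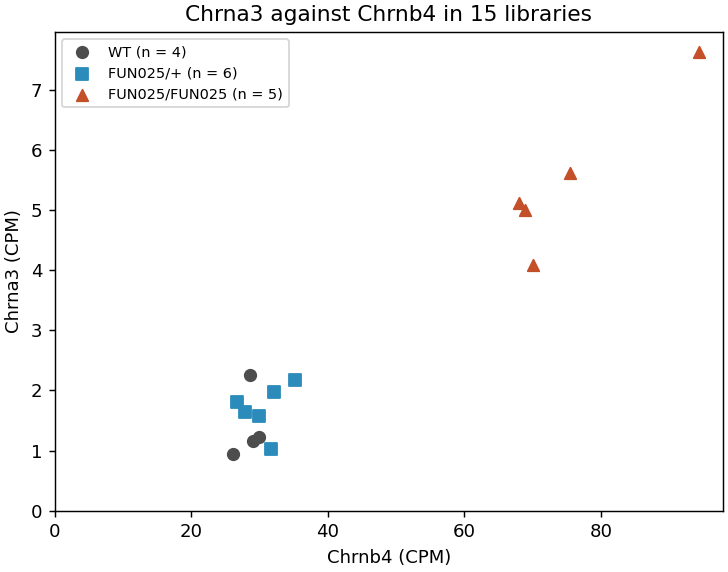
Chrna3 against Chrnb4 in the 15 libraries, both in CPM, with the genotype shown by colour and marker. The FUN025/FUN025 libraries lie apart at the upper right (Chrnb4 at 67.9 to 94.4 CPM, Chrna3 at 4.08 to 7.62 CPM), and the WT and FUN025/+ libraries share one region.

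The other nicotinic subunit genes were read in the same fit. Of the 13 other subunit genes of the mouse on the list, 8 passed the filter on low counts. In FUN025/FUN025 against WT, 0 were called higher and 1 was called lower by edgeR, with 4 at an unadjusted p under 0.05, against 7.03% and 7.00% of all genes. DESeq2 called 2 of them in that comparison. Their median log2 fold change was -0.16, beside -0.0070 over all genes. In FUN025/+ against WT, 1 was called higher and 2 lower, with a median of -0.34 beside -0.0024 over all genes, against 7.08% of all genes called higher and 6.61% called lower. Without WT replicate 2 the median of the 8 genes was -0.12 in FUN025/+, with 1 called higher and 0 lower. In FUN025/FUN025 against WT it was then -0.094, with 0 called. With single FUN025/FUN025 libraries left out, that second median was -0.24 to -0.12. In FUN025/FUN025 against WT, 0 were also called without WT replicate 4 or FUN025/FUN025 replicate 1 or 3. Between FUN025/FUN025 and FUN025/+, 0 of 8 were called by edgeR or DESeq2 and 0 had an unadjusted p under 0.05, where 0.522% of all genes were called.

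Chrna10, which encodes the alpha10 subunit known from cochlear hair cells, was the subunit gene called lower in both mutant genotypes. Its level was 1.33 to 2.20 CPM in WT, 0.299 to 1.14 CPM in FUN025/+ and 0.656 to 0.999 CPM in FUN025/FUN025 libraries, so that neither mutant genotype overlapped WT. Values that did not overlap in this direction were found for 5.18% of all genes in FUN025/+ and for 7.50% in FUN025/FUN025 eyecups. The log2 fold change of Chrna10 was -1.10 (SE 0.27, adjusted p = 0.012, edgeR) in FUN025/+ and -0.95 (SE 0.28, adjusted p = 0.030, edgeR) in FUN025/FUN025 eyecups. The highest library was again WT replicate 2, and without it the log2 fold change of Chrna10 was -0.92 (adjusted p = 0.050, just above the threshold, edgeR) in FUN025/+ and -0.77 (adjusted p = 0.11, edgeR) in FUN025/FUN025. The FUN025/FUN025 call was also lost without WT replicate 3 or 4 or FUN025/FUN025 replicate 1 or 3.

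Chrna7, which encodes the alpha7 subunit that can form receptors by itself, was at 2.39 to 2.89 CPM in WT and 3.44 to 4.94 CPM in FUN025/+ libraries. Its log2 fold change in FUN025/+ was 0.57 (SE 0.16, adjusted p = 0.022, edgeR), with no overlap, as for 5.74% of all genes. In FUN025/FUN025 libraries Chrna7 was at 3.15 to 4.84 CPM, again with no overlap with WT, as for 7.27% of all genes. Its log2 fold change of 0.46 there did not pass the test (SE 0.16, adjusted p = 0.066, edgeR). With the WT libraries thinned to the depth of the mutant libraries, the log2 fold change of Chrna7 in FUN025/+ was 0.56 (adjusted p = 0.051, edgeR), and its call was also lost without WT replicate 3 or 4 (adjusted p up to 0.070, edgeR). Chrnb2, which encodes the beta2 subunit common in brain receptors, was lower in FUN025/+ (18.1 to 22.7 CPM) than in WT (24.0 to 29.2 CPM), with a log2 fold change of -0.31 (SE 0.087, adjusted p = 0.026, edgeR). Without WT replicate 2 the log2 fold change of Chrnb2 was -0.24 (adjusted p = 0.0997, edgeR), and its call was also lost without WT replicate 4 or FUN025/+ replicate 5.

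Chrna6 and Chrnb3, which encode subunits known from retinal ganglion and dopaminergic neurons, varied with single libraries. Chrna6 was at 7.25 CPM in WT replicate 2 and at 0.349 to 1.22 CPM in the other WT libraries. Its log2 fold change between FUN025/FUN025 and WT was -1.90 (SE 0.76, adjusted p = 0.11, edgeR) with that library and -0.33 (SE 0.51, adjusted p = 0.73, edgeR) without it. Chrnb3 was at 19.2 CPM in that library and ranged from 4.50 to 21.6 CPM over all 15. The muscle receptor genes Chrnd and Chrng and the hair cell gene Chrna9 had at most 1 count in any library. Chrnb1, the muscle beta subunit gene, was well detected, at 16.6 ± 1.63 CPM (SD, n = 4) in WT and at 15.4 ± 2.61 CPM (SD, n = 5) in FUN025/FUN025 libraries.

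Levels of different genes were compared per kb of exon. In WT eyecups Chrnb4 (7.63 ± 0.45 CPM per kb, SD) was the highest of the tested subunit genes, followed by Chrnb1 (6.57 ± 0.65), and the ranges of these 2 genes overlapped. Chrna3 (0.265 ± 0.11 CPM per kb) was the lowest of the tested subunit genes in WT, next to Chrna1 (0.309 ± 0.088), with overlapping ranges. In FUN025/FUN025 eyecups Chrnb4 was at 20.2 ± 2.97 CPM per kb, and its lowest library (18.2) lay above the highest of Chrnb1 (7.78). Chrna3 (1.04 ± 0.25 CPM per kb) then stood between Chrnb3 (1.93 ± 0.93) and Chrna4 (0.950 ± 0.23), and its range overlapped that of Chrna4. Chrna3 was the highest alpha subunit gene by mean in FUN025/FUN025 eyecups, ahead of Chrna4 by less than the spread.

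**Figure D3:**
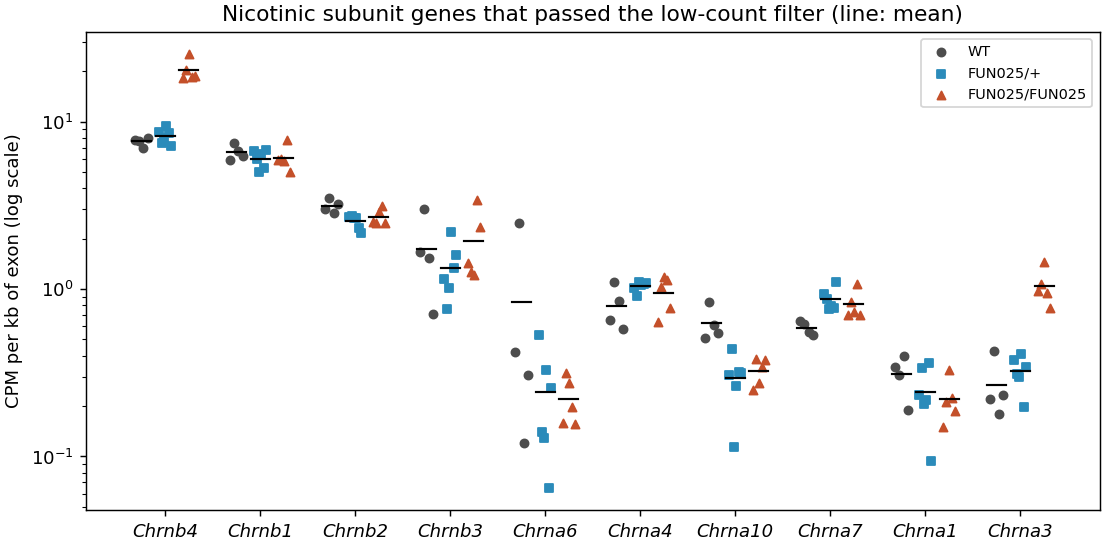
Levels of the 10 nicotinic subunit genes that passed the low-count filter, in CPM per kb of exon on a log scale, ordered by their WT mean; points are libraries and lines are means. Chrnb4 and Chrna3 are the only 2 of these genes whose FUN025/FUN025 libraries lie above all WT and all FUN025/+ libraries, with means of 20.2 and 1.04 CPM per kb. Chrnb4 was chosen by this pattern. Over all genes tested, 7.27% lay above WT in this way and 0.632% above FUN025/+.

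The genes that make, move and break down acetylcholine, or assemble its receptors, were read next. Of the 26 genes of this list, 22 were tested. In both mutant genotypes 0 were called higher than in WT and 1, Ache, was called lower, beside 7.08% of all genes called higher and 6.61% lower in FUN025/+ and 7.03% and 7.00% in FUN025/FUN025 eyecups. For this list, the log2 fold changes had a median of -0.061 in FUN025/+ and 0.0014 in FUN025/FUN025 eyecups, beside -0.0024 and -0.0070 over all genes, and without WT replicate 2 these medians were 0.0017 and 0.058. Ache encodes acetylcholinesterase, which breaks down acetylcholine, and its level was 6.68 to 11.1 CPM in WT, 3.66 to 6.83 CPM in FUN025/+ and 4.52 to 7.92 CPM in FUN025/FUN025 libraries. The log2 fold change of Ache was -0.76 (SE 0.19, adjusted p = 0.012, edgeR) in FUN025/+ and -0.60 (SE 0.19, adjusted p = 0.046, edgeR) in FUN025/FUN025 eyecups, and the ranges overlapped WT in both. The second of these calls was lost in 9 of the 15 fits that each left out a library: without WT replicate 1, 2 or 4, FUN025/+ replicate 1, 2 or 4, or FUN025/FUN025 replicate 1, 4 or 5. In these 15 fits its log2 fold change was -0.72 to -0.49, and without WT replicate 2 it was -0.49 (adjusted p = 0.14, edgeR). The call was also lost in the fit of only the genotypes compared (adjusted p = 0.055, edgeR). Summed skeletal muscle markers, which moved in the same direction, were at 5142 to 9642 CPM in WT, 2711 to 7020 CPM in FUN025/+ and 4160 to 5056 CPM in FUN025/FUN025 libraries, and their part in the Ache result was not tested.

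The genes that define cholinergic neurons had few counts in most libraries. Chat, which makes acetylcholine, had 2 to 18 counts in WT, 0 to 6 in FUN025/+ and 0 to 2 in FUN025/FUN025 libraries. Slc18a3, the vesicular acetylcholine transporter gene, had 0 to 10 counts in any library. Slc5a7, the choline transporter gene, had 7 to 16 counts in WT and 4 to 40 in FUN025/FUN025 libraries, and its log2 fold change of 0.73 (SE 0.68) did not pass the test (adjusted p = 0.52, edgeR). The 40 counts came from FUN025/FUN025 replicate 2, and without that library the log2 fold change of Slc5a7 was -0.094 (SE 0.62, adjusted p = 0.94, edgeR). Ric3 and Tmem35a, which encode chaperones of nicotinic receptors, had log2 fold changes of -0.11 and -0.14 in FUN025/FUN025 against WT, and neither passed the test (adjusted p = 0.37 and 0.54, edgeR). Between FUN025/FUN025 and FUN025/+, 0 of the 22 genes were called by edgeR or DESeq2, beside 0.522% of all genes, with 2 at an unadjusted p under 0.05.

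The protein-coding neighbours of the cluster showed no change of the size seen for the pair. Within 500 kb on either side lie 18 other protein-coding genes, of which 17 were tested. In FUN025/FUN025 against WT their log2 fold changes ran from -0.75 (Tmem266) to 0.19 (Ireb2), with a median of 0.036 (0.0080 without FUN025/FUN025 replicate 5, 0.063 without FUN025/FUN025 replicate 1 and 0.059 without WT replicate 4) beside -0.0070 over all genes, and 1 was called, beside 7.03% of all genes called higher and 7.00% called lower. The one called was Ireb2, which encodes an iron-responsive RNA-binding protein. Ireb2 was at 97.7 ± 3.73 CPM (SD, n = 4) in WT, 114.7 ± 4.37 CPM (SD, n = 6) in FUN025/+ and 111.3 ± 7.72 CPM (SD, n = 5) in FUN025/FUN025 libraries. Its log2 fold change was 0.23 (SE 0.050, adjusted p = 0.0052, edgeR) in FUN025/+ and 0.19 (SE 0.052, adjusted p = 0.022, edgeR) in FUN025/FUN025 eyecups, and the second of these calls was lost without WT replicate 4 or without FUN025/FUN025 replicate 2 (adjusted p up to 0.071, edgeR). Psma4, a proteasome subunit gene and the nearest tested protein-coding gene beyond Chrna5 on its strand, had a log2 fold change of 0.040 (SE 0.049) in FUN025/FUN025 against WT. Between FUN025/FUN025 and FUN025/+, 0 of the 17 were called by edgeR or DESeq2, beside 0.522% of all genes, and 1 had an unadjusted p under 0.05.

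On the other side of Chrnb4, a long intergenic non-coding RNA gene was also higher in FUN025/FUN025 than in WT eyecups. Gm47887 (ENSMUSG00000111157, chr9:55064927-55067463, minus strand) was singled out after its values were seen. Its body ends 16147 bases before the start of Chrnb4, on the same strand. It had 14, 25, 28 and 24 counts in WT, 8 to 21 in FUN025/+ and 45, 30, 36, 28 and 18 in FUN025/FUN025 libraries. In CPM, the FUN025/FUN025 libraries (1.63 to 2.95) were above the WT libraries (0.778 to 1.40), as for 7.27% of all genes. The lowest FUN025/FUN025 library was below the highest FUN025/+ library (1.82). The log2 fold change of Gm47887 was 0.99 (SE 0.26, adjusted p = 0.018, edgeR) against WT and 1.22 (SE 0.25, adjusted p = 0.027, edgeR) against FUN025/+, while FUN025/+ against WT gave -0.23 (SE 0.27, adjusted p = 0.61, edgeR). The second of these calls was lost in 9 of the 15 fits that each left out a library (FUN025/+ replicate 1, 2, 3, 5 or 6 or FUN025/FUN025 replicate 1, 2, 3 or 4), with adjusted p up to 0.10 and log2 fold changes of 1.14 to 1.45 over the 15 fits. Among all genes, 7.03% were called higher in FUN025/FUN025 than in WT and 0.327% higher than in FUN025/+. Of the 11 non-coding genes in this region, 2 had enough counts to be tested. The one besides Gm47887 was the pseudogene Rab7-ps1 (log2 fold change 0.25 in FUN025/FUN025, adjusted p = 0.35, edgeR).

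**Figure D4:**
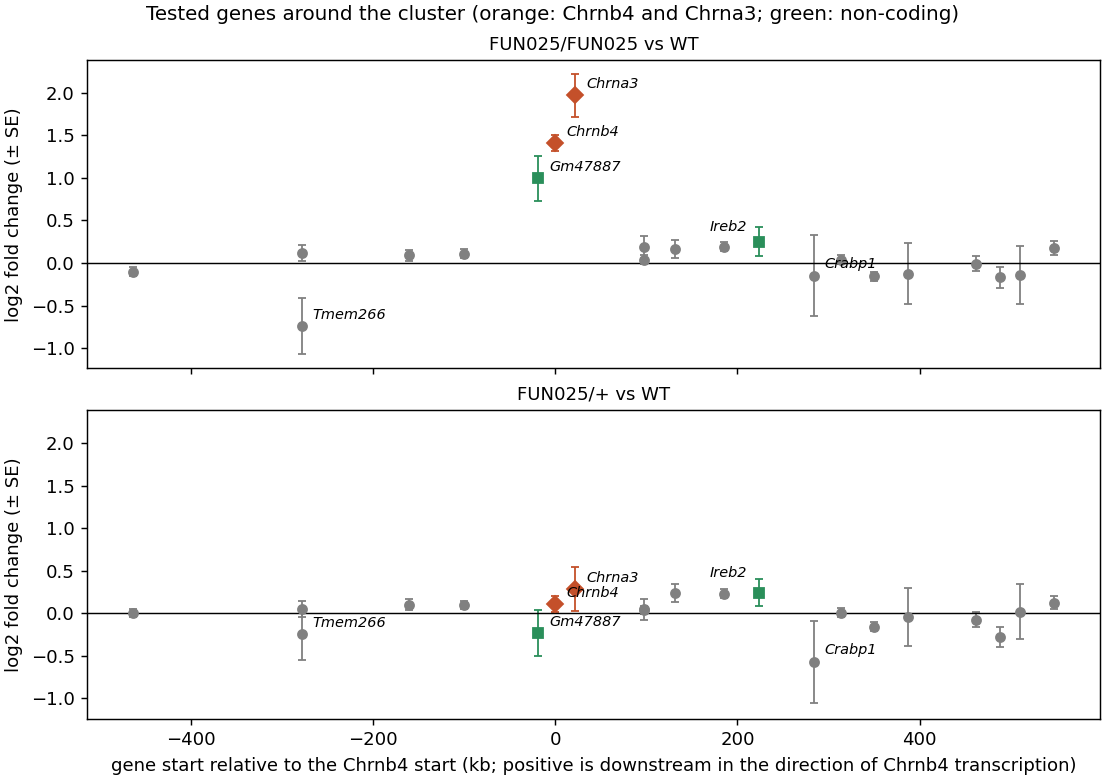
Log2 fold change with its SE for every tested gene within 500 kb of the cluster, against the distance of its start from that of Chrnb4 in kb; the upper panel is FUN025/FUN025 against WT and the lower panel FUN025/+ against WT. In the upper panel Chrna3 (1.97), Chrnb4 (1.41) and the non-coding gene Gm47887 (0.99) stand above the other genes, which lie between -0.75 and 0.25; in the lower panel Chrnb4 is at 0.11 and Chrna3 at 0.29.

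Several transcription factors are known to act on the promoters of this cluster, and their own transcripts were read in the same fit. Sp1 and Sp3, which bind GC-rich boxes, were slightly higher in both mutant genotypes, with log2 fold changes of 0.24 (adjusted p = 0.019, edgeR) and 0.20 (adjusted p = 0.023, edgeR) in FUN025/+ and of 0.24 (adjusted p = 0.026, edgeR) and 0.19 (adjusted p = 0.042, edgeR) in FUN025/FUN025 eyecups. In fits that each left out 1 of the 15 libraries, the calls in FUN025/+ were lost in 1 fit for Sp1 (without WT replicate 4) and in 2 for Sp3 (without WT replicate 3 or 4), and those in FUN025/FUN025 in 4 fits for Sp1 (WT replicate 4 or FUN025/FUN025 replicate 2, 3 or 4 left out) and in 6 for Sp3 (WT replicate 2, 3 or 4 or FUN025/FUN025 replicate 1, 2 or 5 left out; adjusted p up to 0.13, edgeR). The Sp3 call in FUN025/FUN025 was also lost without the low-count filter (adjusted p = 0.053, edgeR) and in the fit of only the genotypes compared (adjusted p = 0.073, edgeR). Sox10, a factor of Schwann cells and pigment cells, was lower in FUN025/FUN025 (140.4 ± 11.5 CPM, SD, n = 5) than in WT (175.2 ± 15.2 CPM, SD, n = 4), with a log2 fold change of -0.32 (SE 0.089, adjusted p = 0.025, edgeR). The call of Sox10 was lost without WT replicate 3 or 4 and without FUN025/FUN025 replicate 2 or 3 (adjusted p up to 0.11, edgeR). Phox2a, a factor of autonomic neurons, had a log2 fold change of -0.95 in FUN025/FUN025 against WT, which did not pass the test (adjusted p = 0.11, edgeR). Over all genes, 7.08% were called higher and 6.61% lower in FUN025/+, and 7.03% and 7.00% in FUN025/FUN025 against WT. Between FUN025/FUN025 and FUN025/+, where 0.522% of all genes were called, 0 of these 4 genes were called by edgeR and 0 had an unadjusted p under 0.05.

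Markers of the cell types that could hold these receptors were set beside the pair. Of the 13 genes on the autonomic neuron list, Hand2, Hmx2, Hmx3, Dbh and Vip had at most 3 counts in 12 or more of the libraries, and the summed level of the list was 74.9 to 99.5 CPM in WT, 77.6 to 101.0 CPM in FUN025/+ and 65.2 to 86.6 CPM in FUN025/FUN025 libraries. Nos1, the neuronal nitric oxide synthase gene, which is also expressed outside autonomic neurons, made up 82.9% to 92.0% of that sum in every library, so the sum mainly gives the level of Nos1. The other 12 genes summed to 7.94 to 13.6 CPM in WT, 7.02 to 13.2 CPM in FUN025/+ and 9.06 to 11.5 CPM in FUN025/FUN025 libraries. In FUN025/FUN025 against WT, the test called 0 of 5 tested autonomic neuron genes, 2 of 9 general neuron genes (both lower), 1 of 5 retinal ganglion cell genes (lower), 0 of 4 starburst amacrine cell genes and 0 of 10 rod and cone genes, beside 7.03% of all genes called higher and 7.00% called lower. Log2 fold changes of the rod and cone genes had a median of -1.71 without passing the test, 6 of them at an unadjusted p under 0.05, and their sum was 227.7 to 2107 CPM in WT and 107.2 to 412.5 CPM in FUN025/FUN025 libraries, with the highest value in WT replicate 2. Without that library the median of the 10 rod and cone genes was -0.60, with 0 called and 1 at an unadjusted p under 0.05, and without WT replicate 4 it was -2.03, with 1 called lower. The test called 0 of 8 pigment epithelium genes, whose sum was 16605 to 20256 CPM in WT and 16215 to 20638 CPM in FUN025/FUN025 libraries, and 0 of 8 melanocyte genes. Choroid endothelium genes were lower for 6 of 7, Schwann cell genes for 3 of 8 and skeletal muscle genes for 3 of 9, and 1 of 8 macrophage genes was higher. The summed choroid endothelium level was 1089 to 1287 CPM in WT, 861 to 1185 CPM in FUN025/+ and 778 to 967 CPM in FUN025/FUN025 libraries. The part of these shifts in the levels of Chrnb4 and Chrna3 was not tested.

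Finally, the genes whose levels followed Chrnb4 most closely over the 15 libraries were sought among 17582 other genes with a mean of at least 1 CPM. The 5 with the highest Pearson's r on log2 CPM were A2m (0.976), which encodes a protease inhibitor, Srebf1 (0.967), the transcription factor gene of fatty acid synthesis, Scd1 (0.963), a fatty acid desaturase gene, Kcnab1 (0.960), a potassium channel subunit gene, and Soat1 (0.958), which encodes a cholesterol-esterifying enzyme. Chrna3 followed at place 12 (0.937). All libraries share the 3 genotypes, and a gene that differs in FUN025/FUN025 libraries has a high r by that alone. After each genotype's mean was removed, r was 0.45 for A2m, 0.59 for Srebf1, 0.075 for Scd1, 0.62 for Kcnab1, 0.41 for Soat1 and 0.45 for Chrna3. Chrnb4 was highest in FUN025/FUN025 replicate 3 (94.4 CPM). So were A2m (1193.7 CPM), Srebf1 (301.6), Kcnab1 (60.1), Soat1 (204.6) and Chrna3 (7.62). Scd1 had its lowest FUN025/FUN025 value there (304.4 CPM). The weight of that library in these r values was not tested. A2m had a mean of 343.2 CPM in WT, 383.2 CPM in FUN025/+ and 947.7 CPM in FUN025/FUN025 libraries. Scd1, the one of the 5 whose deviations followed Chrnb4 least, had means of 96.1 CPM, 98.0 CPM and 343.5 CPM. Kcnab1, whose deviations followed it most, had means of 24.6 CPM, 26.5 CPM and 50.5 CPM. As for Chrnb4, the FUN025/FUN025 libraries of each of these 5 genes lay above all others. The genes were picked for their likeness to Chrnb4, so this is not a separate result. Values did not overlap in this direction for 7.27% of all genes against WT and for 0.632% against FUN025/+.

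**Figure D5:**
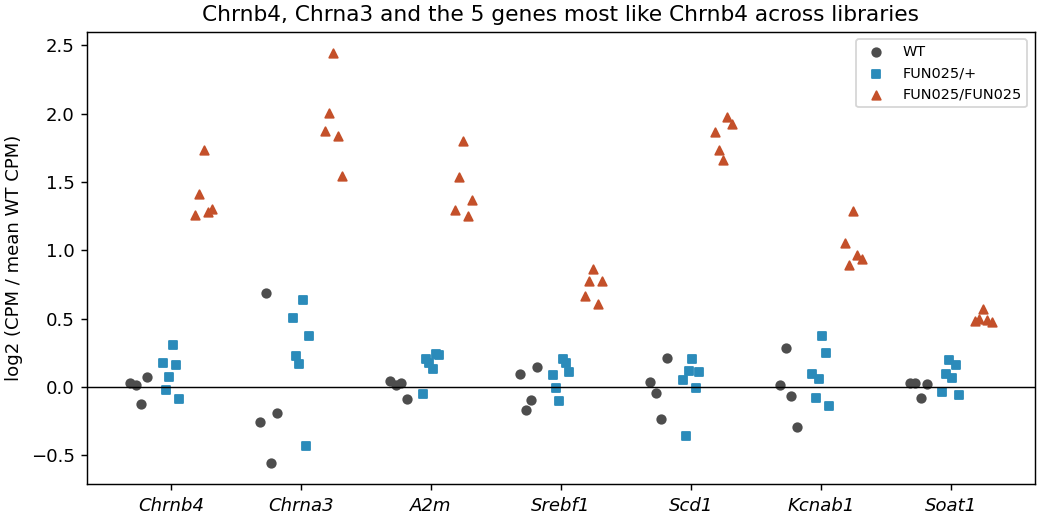
Log2 ratio of each library's CPM to the WT mean for Chrnb4, Chrna3 and the 5 genes with the highest correlation to Chrnb4, by genotype; points are libraries. For all 7 genes the FUN025/FUN025 libraries are above the WT and FUN025/+ libraries, which overlap. Chrnb4 was chosen by this pattern, and the 5 genes by their correlation to Chrnb4. The correlation over 15 libraries was 0.937 for Chrna3 and 0.958 to 0.976 for the other 5.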

How the data were processed

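The deposited files hold whole-number read counts per Ensembl gene, made by the authors without normalization. The submitters' processing notes name FastQC 0.11.8, Trimmomatic 0.39, HISAT2 2.1.0, SAMtools, featureCounts 2.0.0 and GRCm38; the strand setting and annotation release are not given in the sources used here. Symbols came from GENCODE M21 (55240 of 55421 genes). Following the study's methods, a variance filter dropped the lowest 15% of genes; filterByExpr then dropped low counts, leaving 18979 genes. TMM scaling and edgeR 4.0.16's robust quasi-likelihood test followed (R 4.3.3), with genotypes from the labels; adjusted p under 0.05 was called. No 2 libraries of a genotype agreed within counting noise. The fits were tested on simulated data. Alternatives were DESeq2 1.42.0, other scaling and filters, a replicate block, thinned WT counts and leaving out each library. Permutation tests used scipy 1.17.1. The members, lists and tests were chosen with earlier results of these data known. Besides the members, the text names the other nicotinic subunits, neighbours within 500 kb and cholinergic genes that passed the threshold, cluster regulators, defining markers, Chat, Slc18a3, Slc5a7 and the 5 genes most like Chrnb4. Ric3, Tmem35a, Tmem266, Psma4, Rab7-ps1 and Gm47887 and the sterol motif were chosen after values were seen. A result on 1 further cluster regulator is not reported here.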

Additional observations from a re-analysis of the deposited data

Results flagged for a closer look

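Dixon's criterion was applied to the values of each genotype for the 3 members, the 8 other tested subunit genes, Gm47887, Ireb2 and Ache, 42 groups of values in all, of which 4 were flagged; chance flags about 5 in 100. Chrnb4 was at 94.4 CPM in FUN025/FUN025 replicate 3, far from the 67.9 to 75.5 CPM of the other 4 libraries. Chrna6 was at 7.25 CPM (135 counts) in WT replicate 2, the library with neural retina RNA, against 0.349 to 1.22 CPM in the other WT libraries. Gm47887 was at 0.778 CPM (14 counts) in WT replicate 1, against 1.33 to 1.40 CPM, and at 1.82 CPM (21 counts) in FUN025/+ replicate 4, against 0.751 to 1.12 CPM.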

How the results depend on the processing

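The rise of Chrna3 in FUN025/FUN025 eyecups kept its direction and its side of the threshold in the 24 other settings run, with log2 fold changes of 1.82 to 2.31 against WT and of 1.54 to 1.77 against FUN025/+; its difference between FUN025/+ and WT (0.14 to 0.62) passed in none of 24. For Chrnb4 the log2 fold changes were 1.31 to 1.45 against WT and 1.21 to 1.35 against FUN025/+, with 15 fits each leaving out a library, and the other 8 settings moved them by less than 1 SD. Chrna5 is given no fold change under any scaling or filter because of its low counts, so its difference of mean CPM was followed. With thinned WT counts it became -0.0027 CPM (FUN025/+ against WT) and -0.022 CPM (FUN025/FUN025 against WT), and leaving out single libraries gave -0.019 to 0.132 CPM, -0.049 to 0.113 CPM and, for FUN025/FUN025 against FUN025/+, -0.088 to 0.038 CPM, so its direction is not determined. With a prior count of 0.5, r between Chrnb4 and Chrna5 was 0.032.

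Counts of calls moved as follows, and the causes were not tested. Leaving out single libraries gave 1433 to 2721 genes in FUN025/+ and 1519 to 2697 in FUN025/FUN025 against WT, the lowest both without WT replicate 4, beside 2598 and 2663 with all libraries. In these fits 1 to 3 of the other subunit genes, 1 to 2 cholinergic genes and 1 to 2 neighbours were called in FUN025/+, and 0 to 1, 0 to 1 and 0 to 2 in FUN025/FUN025. The subunit count fell to 1 in FUN025/+ without WT replicate 2 or WT replicate 4. DESeq2 called 171 genes between FUN025/FUN025 and FUN025/+ (99 by edgeR) and 2 subunit genes in FUN025/FUN025 against WT. Requiring 10 counts in every library left 0 subunit genes called in that comparison, fitting only the genotypes compared left 0 cholinergic genes, and thinned WT counts gave 2 neighbours called in each mutant genotype.

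Libraries with the same replicate number did not deviate together (correlations -0.385 to 0.133). In a fit with a replicate block, Chrna3 had log2 fold changes of 2.0999 against WT and 1.71 against FUN025/+ (adjusted p = 0.00030 and 0.0040, edgeR), 1 subunit gene and 2 neighbours were called in FUN025/+ and 0 cholinergic genes in FUN025/FUN025 against WT. The calls of Chrna7 (0.53) and Chrnb2 (-0.23) in FUN025/+, of Ache (-0.60), Sp3 (0.19) and Sox10 (-0.32) in FUN025/FUN025, and of Gm47887 against FUN025/+ (1.19) were lost under the block. Depth limits Chrna5 and, with 11 to 42 counts outside FUN025/FUN025 libraries, any small difference of Chrna3 between FUN025/+ and WT.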
